A study of Mus musculus with 12 samples.

Results

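Of 59246 regions of accessible liver chromatin found in any of 3 groups of mice, 2998 (5.06%) overlapped a Control peak and a Sham peak but no peak from mice that underwent vertical sleeve gastrectomy (VSG). These Control and Sham regions, as they are called here, were chosen by measured values, namely by the peak calls of FAIRE-seq (Formaldehyde Isolation of Regulatory Elements), which enriches for DNA not held by nucleosomes after formaldehyde fixation. The 3 deposited peak lists were merged where peaks overlapped or touched, and a region was counted in a group when it shared at least 1 bp with a peak of that group. Everything that FAIRE-seq gives for these regions is therefore a description, and RNA-seq of the same livers is the readout that did not enter their choice.

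The mice were male C57BL/6J. Sham and VSG mice received a diet with 60 kcal% fat from 8 weeks of age for 14 weeks, then underwent surgery and stayed on the diet for a further 14 weeks, apart from 4 days of liquid diet after the operation. In VSG mice about 80% of the stomach was resected, whereas in Sham mice the stomach was isolated and pressed with forceps but left whole. Control mice ate normal chow for 28 weeks and had no operation. The Control and Sham groups thus shared an intact stomach and differed in diet and in surgery, and the VSG group shared its diet with the Sham group. Both assays used 2 mice per group. Each peak list combines the 2 mice of its group, so no FAIRE value has an error from replicates, and the depth behind the lists is unknown. Absence from the VSG list means that no VSG peak passed the authors' calling across both mice, and no VSG signal at these regions was at hand.

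The liver controls most of its genes through distal enhancers bound by factors such as HNF4, HNF6, FOXA and C/EBP, and through promoters that are often rich in CpG dinucleotides when the gene is used by all cells. During inflammation, interleukin 6 acts on hepatocytes through STAT3 and C/EBP factors and raises acute phase proteins such as serum amyloid A, haptoglobin, fibrinogen and hepcidin. Hepcidin, encoded by Hamp, is the hormone that limits the release of iron into blood.

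Sequences are given first for 6 regions that were among the highest by signal, or that lay in the promoters of acute phase genes, because the results on single loci turn on them. They are read from the plus strand of NCBIM37 (mm9) at the centre of each region, 5′ to 3′. Capitals mark matches on either strand to the 5 motifs whose share in the Control and Sham regions was over 1.5 times that in the union, described with the motif results, and to the C/EBP motif TTGCNNAA, which was added after the values were seen. A match is a description, not a site or a cause. The Hamp promoter held no match to these motifs, which says only that these letters are not in this window. The looser STAT motif TTCNNNGAA, with a ratio of 1.32, was not marked. It is present in the Hamp window as ttctcagaa and in the Id3 window as ttctgtgaa. The Saa1 and Saa2 promoters, shown side by side because the genes are near copies, the second of them chosen after its values were seen, each held the C/EBP motif on the strand of transcription.
Hamp promoter, chr7:31729213-31729512: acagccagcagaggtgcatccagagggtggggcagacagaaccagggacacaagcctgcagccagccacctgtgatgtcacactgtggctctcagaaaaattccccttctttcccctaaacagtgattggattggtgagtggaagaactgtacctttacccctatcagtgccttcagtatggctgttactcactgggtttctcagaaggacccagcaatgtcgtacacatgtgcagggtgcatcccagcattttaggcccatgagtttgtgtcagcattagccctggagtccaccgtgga
Saa1 promoter, chr7:53998381-53998580: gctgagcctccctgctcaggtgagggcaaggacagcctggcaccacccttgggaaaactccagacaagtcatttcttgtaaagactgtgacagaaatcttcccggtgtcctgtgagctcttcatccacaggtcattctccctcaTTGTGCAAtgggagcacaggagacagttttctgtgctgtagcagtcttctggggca
Saa2 promoter, chr7:54006899-54007198: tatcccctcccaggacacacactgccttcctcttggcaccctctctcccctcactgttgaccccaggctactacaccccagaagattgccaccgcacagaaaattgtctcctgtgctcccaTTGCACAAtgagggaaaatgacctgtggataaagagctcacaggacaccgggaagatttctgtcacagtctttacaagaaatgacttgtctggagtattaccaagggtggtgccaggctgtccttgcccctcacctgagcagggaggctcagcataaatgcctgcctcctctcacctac
Id3 upstream region, chr4:135695632-135695931: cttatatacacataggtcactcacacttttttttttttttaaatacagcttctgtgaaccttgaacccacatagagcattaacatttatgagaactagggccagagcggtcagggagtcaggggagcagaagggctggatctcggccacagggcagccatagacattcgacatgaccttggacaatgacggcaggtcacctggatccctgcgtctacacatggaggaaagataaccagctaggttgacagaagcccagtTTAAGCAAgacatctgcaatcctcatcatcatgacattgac
Il1r1 upstream region, chr1:40231937-40232236: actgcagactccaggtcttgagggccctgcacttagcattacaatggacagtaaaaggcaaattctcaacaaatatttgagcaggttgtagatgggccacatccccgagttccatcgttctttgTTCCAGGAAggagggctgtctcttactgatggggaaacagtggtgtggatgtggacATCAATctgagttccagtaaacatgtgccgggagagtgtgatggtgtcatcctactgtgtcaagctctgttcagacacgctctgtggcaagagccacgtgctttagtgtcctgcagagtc
H6pd upstream region, chr4:149394041-149394340: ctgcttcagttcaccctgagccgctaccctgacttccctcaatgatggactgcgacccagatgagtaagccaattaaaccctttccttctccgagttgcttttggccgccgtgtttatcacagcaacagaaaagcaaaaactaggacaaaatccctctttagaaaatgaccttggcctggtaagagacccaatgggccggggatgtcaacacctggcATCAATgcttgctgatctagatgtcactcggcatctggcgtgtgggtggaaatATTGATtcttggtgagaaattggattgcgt
The Id3 window held a C/EBP match, the Il1r1 window a STAT and an HNF6 match, and the H6pd window 2 HNF6 matches. The 2 following sequences show the motif with the highest ratio, the core of the CTCF site, and were those with the highest lower percentile of signal among the Control and Sham regions that held it in a window free of exons.
Adam11 upstream region, chr11:102600508-102600807: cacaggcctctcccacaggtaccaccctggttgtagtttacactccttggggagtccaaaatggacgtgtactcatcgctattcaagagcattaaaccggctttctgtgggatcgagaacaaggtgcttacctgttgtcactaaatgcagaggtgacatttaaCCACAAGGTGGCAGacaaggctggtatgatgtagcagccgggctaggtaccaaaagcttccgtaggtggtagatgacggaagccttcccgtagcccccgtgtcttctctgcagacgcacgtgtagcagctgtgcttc
Gm10313 downstream region, chr8:47327317-47327616: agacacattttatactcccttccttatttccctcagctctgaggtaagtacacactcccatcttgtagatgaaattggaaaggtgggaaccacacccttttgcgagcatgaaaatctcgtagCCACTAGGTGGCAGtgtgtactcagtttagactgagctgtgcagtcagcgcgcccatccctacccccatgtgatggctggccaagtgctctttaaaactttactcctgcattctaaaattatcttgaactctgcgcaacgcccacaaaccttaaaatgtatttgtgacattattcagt
In both, the capitals are the core of the motif of CTCF, an insulator protein that shapes chromatin loops.

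Control and Sham regions were short and lay away from transcription start sites (TSS). Their median length was 281 bp, against 352 bp for the union and 487 bp for the 32716 regions present in all 3 lists, and they ranged from 164 to 1744 bp. Together they covered 1030963 bp. Within 1000 bp of the TSS of a protein-coding gene lay 288 of them (9.61%, Wilson 95% interval 8.60 to 10.7%), against 24.9% of the union and 34.4% of the regions in all 3 lists. Of the others, 128 (4.27%) lay in exons, 1330 (44.4%) in introns and 1252 (41.8%) between genes. The median distance to the nearest TSS was 14359.5 bp, against 9332 bp in the union, with the central 50% of distances between 3983 and 35803 bp. The intervals cover counting error only, and neighbouring regions are not independent.

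The location differed most from that of the regions shared by Control and VSG mice but missing from the Sham list. Of those 1878 regions, 42.2% (39.96 to 44.4%) lay within 1000 bp of a TSS, at a median distance of 2317 bp. By contrast, 7.36% (6.73 to 8.05%) of the 6083 regions shared by Sham and VSG mice were promoter regions, at a median distance of 17432 bp, so the Control and Sham regions resembled the latter in location. Regions found in Sham mice alone had the lowest promoter share, 5.50%, and those found in VSG mice alone reached 29.3%. Classes that included a Sham peak but lacked 1 or both of the others had low promoter shares, as the plot of the 7 classes shows.

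Few of the regions were rich in CpG. A CpG-rich centre, defined as 300 bp with a GC content of at least 50% and an observed to expected CpG ratio of at least 0.6, was found in 110 Control and Sham regions (3.67%, 3.05 to 4.40%), against 19.5% of the union, 37.9% of the Control and VSG regions and 2.56% of the Sham and VSG regions. Among promoter regions alone, 63 of the 288 (21.9%) were CpG-rich, against 64.8% of all promoter regions of the union and 69.9% of those shared by Control and VSG mice, and the share was 22.3% for Sham and VSG. The median GC content was 50.3%, against 52.3% in the union. On chromosome X lay 13 of the regions (0.434%), against 1.09% of the union, and 1 lay on chromosome Y.

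**Figure D1:**
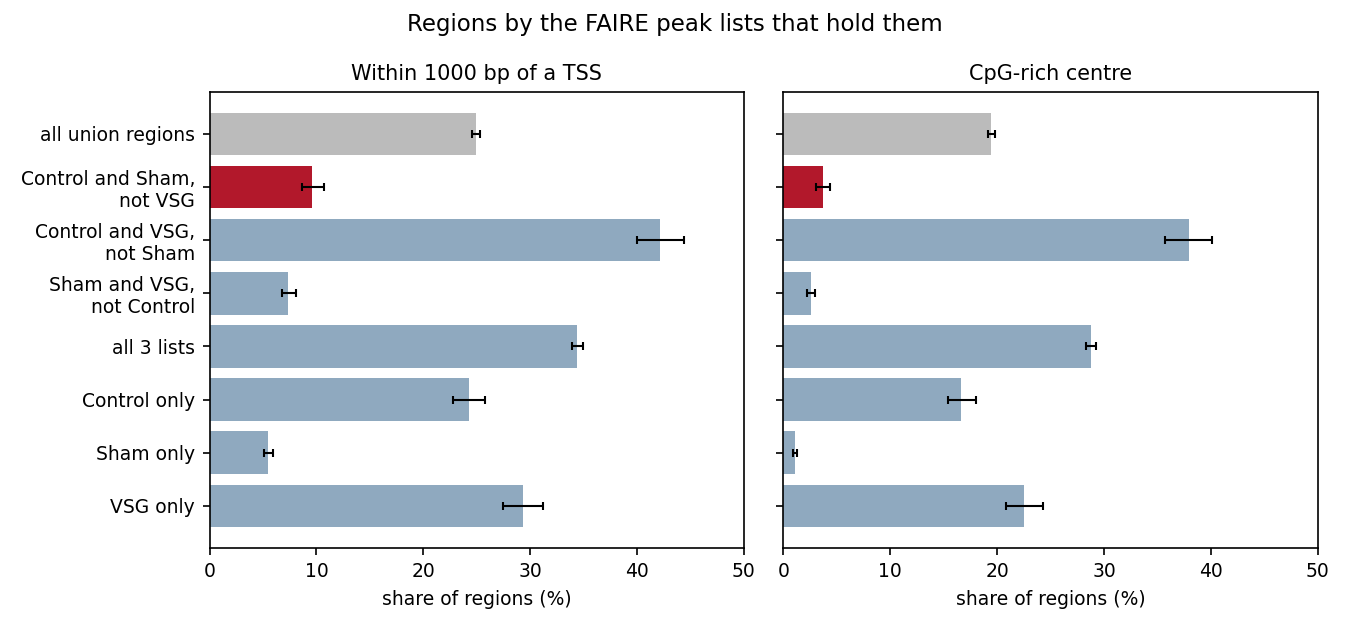
Shares (%) of regions within 1000 bp of a TSS (left) and with a CpG-rich centre (right), for all union regions and the 7 classes defined by the lists that hold them. Bars are shares and lines are Wilson 95% intervals. Control and Sham regions stand at 9.61% and 3.67%, far from the Control and VSG regions at 42.2% and 37.9%.

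Control and Sham regions were among the weaker peaks of both lists. The F-seq signal of a peak was used only as a percentile within its own list, since the lists were scaled separately. The median percentile was 19.2 in the Control list and 24.7 in the Sham list, against 60.5 and 67.8 for the regions present in all 3 lists. In the lower 50% of both lists were 2621 regions (87.4%), and 37 (1.23%) were in the upper 50% of both. The lowest 10% of the Control list held 846 of them (28.2%), the lowest 10% of the Sham list 618 (20.6%), and the highest 10% of either list held 0. For comparison, the Sham and VSG regions had a median percentile of 39.3 in the Sham list and the Control and VSG regions 24.02 in the Control list. A VSG peak that fell just short of calling cannot be told apart from a closed region in lists of this kind.

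**Figure D2:**
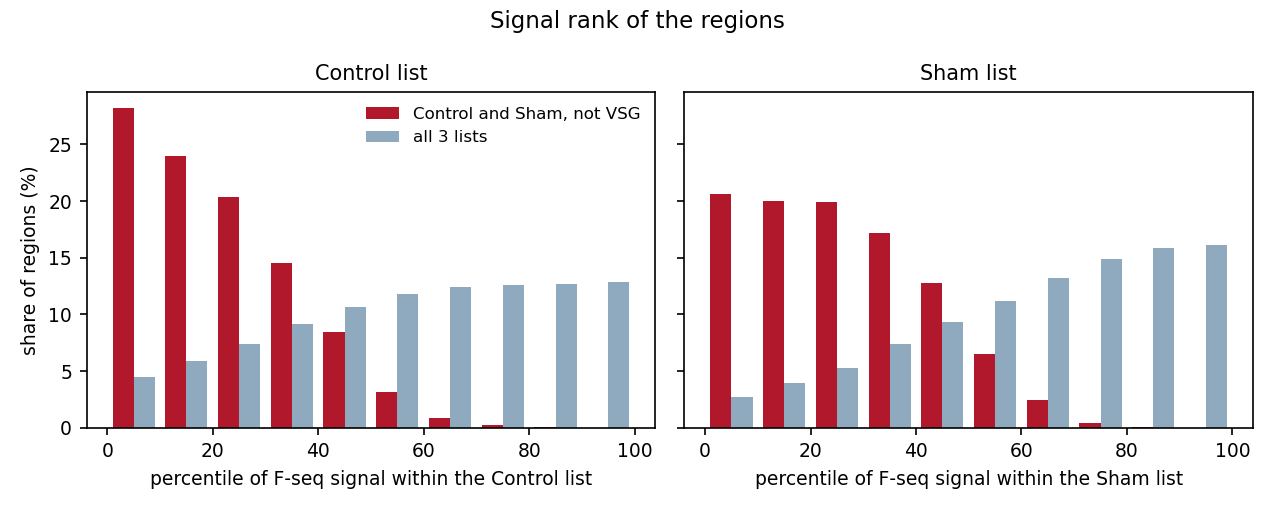
Share (%) of regions by percentile of F-seq signal within the Control list (left) and the Sham list (right), in steps of 10, for the 2998 Control and Sham regions and for the 32716 regions of all 3 lists. The Control and Sham regions crowd the lowest steps, with 28.2% and 20.6% in the first, whereas the regions of all 3 lists increase toward the top.

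The 2 lists that defined the regions placed them alike. In 2976 regions there was 1 Control peak and 1 Sham peak, and the summits were a median of 13 bp apart, with 2844 (94.9%) within 100 bp. In 1747 regions (58.3%) the percentile was higher in Sham than in Control mice. The nearest VSG peak was a median of 3667.5 bp away. It lay within 250 bp of 301 regions (10.04%) and within 1000 bp of 768 (25.6%), and 930 regions (31.0%) had no VSG peak within 10000 bp. Just inside the rule were regions near Gbp11, Polr3a and Mgat5, with a VSG peak 2, 6 and 14 bp away. Just outside it were regions of all 3 lists near Mrs2, Dcbld1 and Vmn1r157, where the VSG peak overlapped by 136, 137 and 138 bp. Of the 32716 regions of all 3 lists, 0 had an overlap of 50 bp or less, whereas 20 Control and Sham regions had a VSG peak within 50 bp.

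The authors also deposited positions of sites that differed between groups in their read counts, without values. Of the 99 sites they called more open under Sham than under VSG, 22 overlapped a Control and Sham region, and 3 of these were among the 61 sites they listed as more accessible in Sham than in both other groups. Of the 414 sites more open under VSG the overlap was 0, as was that of the 175 sites less accessible in Sham than in both other groups. The 22 were 0.734% of the Control and Sham regions, whereas 0.167% of all union regions overlapped such a site. The 3 were 0.1%, near the 0.103% of all union regions. The 414 and 175 sites overlapped 0.699% and 0.295% of all union regions. No test was made, because peaks and sites share libraries.

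Motif content was compared with the union in 300 bp windows, on both strands and for 27 motifs, of which 14 had a ratio of shares above 1 and 13 below. The core of the CTCF motif had the highest ratio. It was present in 28 Control and Sham regions (0.934%), against 0.392% of the union, a ratio of 2.39, and its shorter form AGGTGGCAG, which it contains, in 107 (3.57% against 1.997%, 1.79). The STAT motif TTCCNGGAA, bound by the factors that act after interleukin 6 and growth hormone, was present in 77 (2.57% against 1.55%, 1.66). The HNF6 motif ATTGAT was present in 373 (12.4% against 7.94%, 1.57), and HNF6, encoded by Onecut1, is a liver factor of bile duct and hepatocyte genes. The HNF1 motif was in 11 regions, a ratio of 1.52. The 6 motifs with a ratio under 0.5 included those of YY1 (5 regions, 0.209), NRF1 (3 regions, 0.262) and NF1 (1 region, 0.373), and the first pair are motifs of housekeeping promoters.

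Since few of these regions were promoters, the shares were also taken outside promoters. There CTCF core had 0.959% against 0.515% (1.86), HNF6 12.6% against 9.45% (1.34), and STAT 2.55% against 1.64% (1.56). YY1 moved to 0.650 and NRF1 to 1.2, so that the low shares of these motifs in the whole set went with the low number of promoters. Control and Sham regions had the highest share of the 7 classes for 6 of the 27 motifs, CTCF core, its short form, both STAT forms, HNF6 and HNF1. The C/EBP motif was in 549 of them (18.3%), against 14.8% of the union and 19.7% of the Sham and VSG regions. The counts of the rarest motifs are small, and no test was made.

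**Figure D3:**
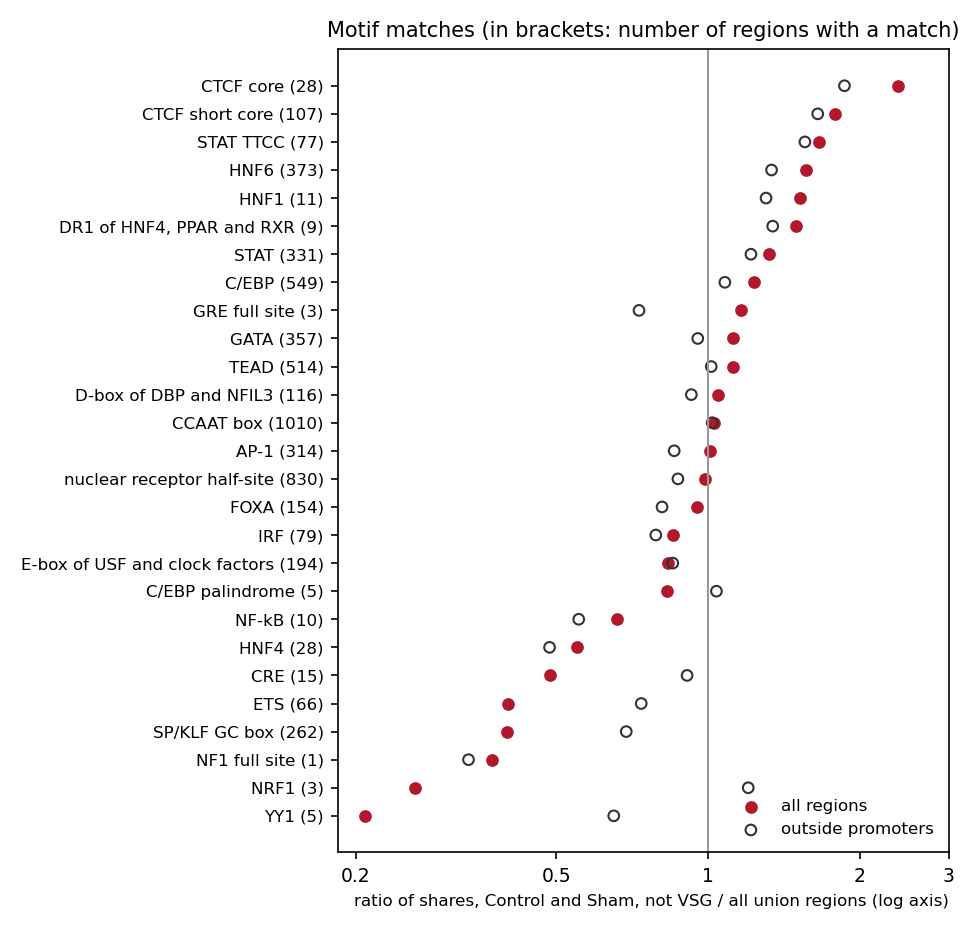
Ratio, on a log axis, of the share of Control and Sham regions with each of 27 motifs to the share of all union regions with it. Filled points are all regions and open points regions outside promoters, and numbers in brackets are Control and Sham regions with a match. CTCF core is highest at 2.39 and YY1 lowest at 0.209, and the open points of YY1 and NRF1 lie nearer to 1.

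The regions with the highest signal lay near genes of several kinds. Of those that overlapped a site more open under Sham than under VSG, 8 had the highest Sham percentile. They were nearest to Ndfip2 (percentile 81.1 in Sham and 14.3 in Control), Cpb2 (79.7 and 51.9), Id3 (78.2 and 80.6), Mapkapk2 (76.5 and 42.4), Scara5 (74.6 and 49.8), H6pd (71.7 and 18.8), Dhx40 (70.9 and 26.8) and Il1r1 (70.7 and 45.1). Cpb2 encodes a carboxypeptidase that slows the breakdown of clots, H6pd an enzyme of the endoplasmic reticulum that makes NADPH, and Il1r1 the receptor of interleukin 1. In most of them the rank was far higher in Sham than in Control mice, which the choice by Sham percentile favours. The Id3 region, 3630 bp upstream of the TSS at chr4:135695631-135695933, was the exception, with similar ranks in both lists, and its nearest VSG peak was 268 bp away. Id3 is an inhibitor of basic helix-loop-helix factors and a target of BMP signalling.

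High in both lists were also regions in an intron of Ell (66.4 in Control and 68.4 in Sham), in an intron of Nfia nearest to E130114P18Rik (73.6 and 64.5), in an intron of Zbtb16 (60.6 and 59.2), far upstream of St8sia3 (60.7 and 62.0) and at Hamp and Saa1. Ell encodes a transcription elongation factor. The 3 at Hamp and Saa1 placed acute phase genes among the 8 Control and Sham regions with the highest lower percentile of the 2 lists.

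Hamp had 2 such regions. The promoter region, at chr7:31728992-31729733 and centred 327 bp upstream of the TSS, had a signal percentile of 80.0 in Control and 60.5 in Sham, and the nearest VSG peak was 9368 bp away. The other, at chr7:31730412-31731005 in an intron of the neighbouring gene Usf2, was centred 1673 bp upstream of the Hamp TSS, with percentiles of 76.7 and 64.2. Within 12000 bp on each side of Hamp, the Control and Sham lists had 5 peaks each and the VSG list 2. Both VSG peaks lay more than 10000 bp upstream, at the far end of Usf2, at positions where the other lists also had peaks. The remaining Control and Sham region lay in between, nearest to Usf2.

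Saa1 and Saa2, which encode the major acute phase serum amyloid A proteins, had 4 such regions. At the Saa1 promoter (chr7:53998281-53998681) the percentile was 61.3 in Control and 61.2 in Sham, and at the Saa2 promoter (chr7:54006848-54007250) 37.3 and 33.0. The other pair lay 2638 bp downstream of the Saa1 TSS and 2542 bp downstream of the Saa2 TSS, with percentiles of 26.9 and 21.5 in Control and 9.27 and 2.35 in Sham. All 4, and the Hamp promoter region, overlapped sites more open under Sham than under VSG. In the same window the Control list had 9 peaks, the Sham list 7 and the VSG list 4, and 2 regions between the genes were shared by all 3 lists. The 300 bases upstream of Saa1 and Saa2 were 91.1% identical (275 of 302 aligned positions), and the authors kept uniquely mapped reads, so signal in near-identical stretches is uncertain for all groups.

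Gene lists were compared by the regions within 10 kb of a TSS. Over all protein-coding genes, 1259 of 30356 such union regions (4.15%) were Control and Sham regions. The acute phase and interleukin 6 list had the highest share, 16 of 115 (13.9%), spread over 11 of its 29 genes. These were Hamp, Saa1, Saa2, the fibrinogen chains Fga, Fgb and Fgg, haptoglobin (Hp), hemopexin (Hpx), Itih4, Serpina3m and Serpina3n. Fatty acid oxidation and ketogenesis followed with 14 of 111 (12.6%) at 9 genes. Bile acid synthesis and transport had 6 of 48 (12.5%), at Abcc3, Cyp7a1, Cyp8b1, Hsd3b7 and Slc10a1. Apolipoproteins and lipoprotein handling had 9 of 75 (12.0%), among them 3 at the lipid droplet gene Cidec and 1 at the hepatic lipase gene Lipc.

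Liver transcription factors had 9 of 110 (8.18%), at 8 of 15 genes, including 2 in introns of Hnf4a and 1 in an intron of Onecut1. Complement and coagulation had 8 of 96 (8.33%) and fatty acid and triglyceride synthesis 8 of 117 (6.84%), with 3 at Dgat2. Nuclear receptors were near the background with 7 of 164 (4.27%), of which 3 were at the bile acid receptor gene Nr1h4. Lists at or under the background included the core clock (3 of 85, 3.53%), glucose and insulin signalling (4 of 122, 3.28%), cytochrome P450 genes (3 of 109, 2.75%), toll-like receptor and NF-kB signalling (2 of 78, 2.56%), cholesterol synthesis (2 of 82, 2.44%) and immediate early genes (2 of 83, 2.41%). Chemokines had 1 of 27, which was downstream of Cxcl1, chromatin regulators 6 of 107 (5.61%), and matrix and TGF-beta genes 4 of 66 (6.06%).

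Markers of cell types gave few regions. Hepatocyte markers had 2 of 57 (3.51%), in Alb and Cyp2e1, and sinusoidal endothelial markers 1 of 18, in Lyve1. Markers of Kupffer cells (3 union regions), stellate cells (6), cholangiocytes (5), neutrophils (5) and lymphocytes (3) had 0. The regions of these other cell types are thus too few in whole liver to be compared.

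Control and Sham regions sometimes clustered at 1 gene. They had 2250 nearest genes within 100 kb, of which 1838 had 1 region, 316 had 2, 76 had 3, 13 had 4, 4 had 5, 2 had 6 and 1 had 7. Zmiz1, a transcriptional coactivator gene, had 7 of its 56 union regions in the class, Slc38a4, an amino acid transporter gene, 6 of 23, and Id2, which encodes a relative of Id3, 5 of 25. Scara5, a ferritin receptor gene, had 6 of only 9 union regions. A pair of the Scara5 regions lay at its promoter and 4 in an intron, 49853 to 52966 bp from the TSS, and their Sham percentiles ran from 18.6 to 74.6. The intron regions at chr14:66336497-66337084, 66337162-66337976 and 66338047-66338433 lay almost end to end, so they need not be separate sites.

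RNA-seq gave a readout that did not enter the choice of the regions, although it came from the same livers. The FPKM (fragments per kilobase of transcript, scaled to the total of mapped fragments) of the transcripts of a gene was summed. Then log2(FPKM + 1) was fitted with limma over 9869 genes, with Benjamini-Hochberg adjustment at an FDR of 10%. All log2 changes are on this scale, which understates the changes of low genes. Folds between group means are ratios of mean FPKM. In bulk liver, fewer cells of a type and less RNA per cell cannot be told apart. The labels number the 2 replicates of a group without further detail, so p-values measure the spread between these samples. Between 8682 and 9236 genes per mouse had an FPKM of at least 1. The sum over the 8 hepatocyte markers in the FPKM table, with Apoa1 and Cyp2e1 the highest, ranged from 20014 to 23684 in Control, 11840 to 20743 in Sham and 19081 to 21724 in VSG mice.

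Of the 2250 nearest genes, 1402 passed the filter on low values. Their median FPKM over the mice was 8.12, against 5.84 for all genes tested and 6.28 for genes at the same distance limit of 100 kb from the regions of all 3 lists. It was 10.4 for the genes with a Control and Sham region within 10 kb. These levels are per length, as FPKM is. Of the 1402, 0 were called in VSG mice against the mean of Control and Sham, where 0.142% of all genes were called. The count was also 0 for VSG against Sham (all genes, 0.0507%) and for VSG against Control (0.284%). Leaving out Sham mouse 2 gave 3 calls against the mean (0.217% of 1381 genes, with 0.145% of all genes called) and 12 against Sham (0.869%, with 0.789% of all genes), both near the share of all genes. Apob and Rxra, listed at 0 in Sham mouse 1, were among the latter.

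At an unadjusted p under 0.05, 54 of the 1402 genes (3.85%) were lower in VSG mice than in the mean of Control and Sham, where 2.10% of all genes were lower, and 59 (4.21%) were higher, where 3.85% of all genes were higher. Against Sham, 34 (2.43%) were lower, with a background of 1.60%, and 47 (3.35%) higher, with 3.25%. Against Control, 66 (4.71%) were lower, with 2.53%, and 92 (6.56%) higher, with 7.02%. The 3 comparisons share the VSG mice. For regions within 10 kb of the TSS the share lower against the mean was 4.65%, and within 1000 bp it was 5.69%, for 211 genes, of which 5.21% were higher. Genes near the Control and VSG regions stood at 1.95%, the Sham and VSG regions at 2.41%, and the regions in Control mice alone at 3.53%. With the mice scaled to equal medians, 5.06% of the 1402 genes were lower against the mean (all genes, 3.06%) and 1.93% higher. The balance of lower and higher genes thus depended on the scaling. No test was made of these shares.

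By sign alone, 551 of the 1402 genes (39.3%) were lower in VSG mice than in the mean of Control and Sham, against 34.4% of all genes. The share was 42.6% against Sham (all genes, 40.3%) and 44.4% against Control (38.6%). Most genes near Control and Sham regions were therefore higher, not lower, in VSG mice, as were most genes tested, whose median log2 change against the mean was 0.12. With the mice scaled to equal medians, 52.8% were lower than the mean (all genes, 49.4%), 54.7% lower than Sham (54.6%) and 54.1% lower than Control (49.5%), so that the majority turned with the scaling while the excess over all genes against Sham was near 0.

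Hamp RNA had the most negative log2 change of the 1402 genes, although it did not pass the adjusted threshold. Its FPKM was 2052 and 2407 in Control, 1253 and 718 in Sham and 99.7 and 4.74 in VSG mice. Both VSG mice lay below all 4 others. The mean of the VSG mice, 52.2 ± 67.2 (SD, n = 2), was 18.9-fold lower than that of Sham (986 ± 378) and 42.7-fold lower than that of Control mice (2230 ± 251). Against the mean of both groups, the log2 change was -5.92 ± 1.17 (SE), with an adjusted p = 0.526 by limma. Without VSG mouse 1, Hamp was called against Control. Hamp2, a near-identical copy that can share reads with Hamp, had 575 and 542, 272 and 160, and 23.0 and 1.56 in the same order. RNA of Saa1, Saa2, Fga, Fgb, Hpx and Alb was not analysed here.

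The other acute phase genes with regions were mixed in pattern. Serpina3n, a protease inhibitor gene with a region at its promoter and another 8950 bp downstream, had 1423 and 1443 in Control, 929 and 2191 in Sham, and 725 and 378 in VSG mice, a log2 change of -1.45 ± 0.47 (adjusted p = 0.782). Fgg had 4215 and 4015, 3660 and 6986, and 2897 and 1719 (-1.03 ± 0.42, adjusted p = 0.839). In both, the VSG mice were below the other 4, and the Sham mice were far apart. Hp and Itih4, in contrast, had their highest mean in Sham and their lowest in Control mice. Hp had 5340 and 5572 in Control, 14410.0 and 22141 in Sham, and 11080.0 and 4459 in VSG mice. Itih4 had 1013 and 1261, 1488 and 4626, and 1372 and 1369. Of the 6 tested genes of the list with a region within 10 kb, 5 had a negative change, 2 of them at an unadjusted p under 0.05, with a median of -0.76. For the 19 tested genes of the whole list, 12 had a negative change, 4 of them at an unadjusted p under 0.05, with a median of -0.21. Against Sham, the change was negative in 6 of the 6 genes with a region (median -1.26) and in 18 of the 19 (median -1.18), so that genes with a region and the whole list were alike in this. Against Control, it was negative in 3 of the 6 (median -0.30) and in 9 of the 19 (median 0.28).

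Among the 10 genes near Control and Sham regions with the smallest p, 5 besides Hamp were lower in VSG mice and 4 were higher. Mt1, a metallothionein gene that binds zinc and copper, had the smallest p. Its FPKM was 4506 and 5629 in Control, 2826 and 3221 in Sham, and 870 and 555 in VSG mice, a change of -2.49 ± 0.31 (adjusted p = 0.253), with the groups ordered without overlap. Mt1 had 3 regions between 1756 and 3262 bp downstream of its TSS, with percentiles from 15.1 to 27.3 in Control and 4.22 to 18.2 in Sham. Gadd45g, a stress response gene, had 159 and 152 in Control, 15.3 and 42.5 in Sham, and 14.7 and 7.89 in VSG mice (-2.45 ± 0.47, adjusted p = 0.520). There the main step was between Control and both other groups. Phf17, also known as Jade1, had 4.44 and 4.41, 5.004 and 5.07, and 2.09 and 1.41, and a region at a TSS. Slc25a33, a mitochondrial carrier of pyrimidine nucleotides, was lower in both VSG mice by 0.83 on the log2 scale. Dnase2b was listed at 0 in both VSG mice and had 2.44 to 6.49 in the others.

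Those higher in VSG mice were Anks4b (log2 change 1.15 ± 0.21), Hdac11 (1.21 ± 0.25), Bcar1 (0.81 ± 0.17) and Bid (1.25 ± 0.23). Bcar1 had 4.74 and 5.21 in Control, 11.4 and 10.4 in Sham, and 13.3 and 14.4 in VSG mice. Its log2 change was 0.32 against Sham and 1.31 against Control, so its main step was between Control and both other groups. Hdac11 encodes a histone deacetylase, and its FPKM was 10.9 and 9.06, 7.31 and 9.46, and 18.2 and 27.5. Both VSG mice were above the 4 others although a region in its intron was found in no VSG peak. Bid was listed at 0 in both Control mice and had similar values in Sham (3.4 and 4.2) and VSG mice (3.43 and 5.11).

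**Figure D4:**
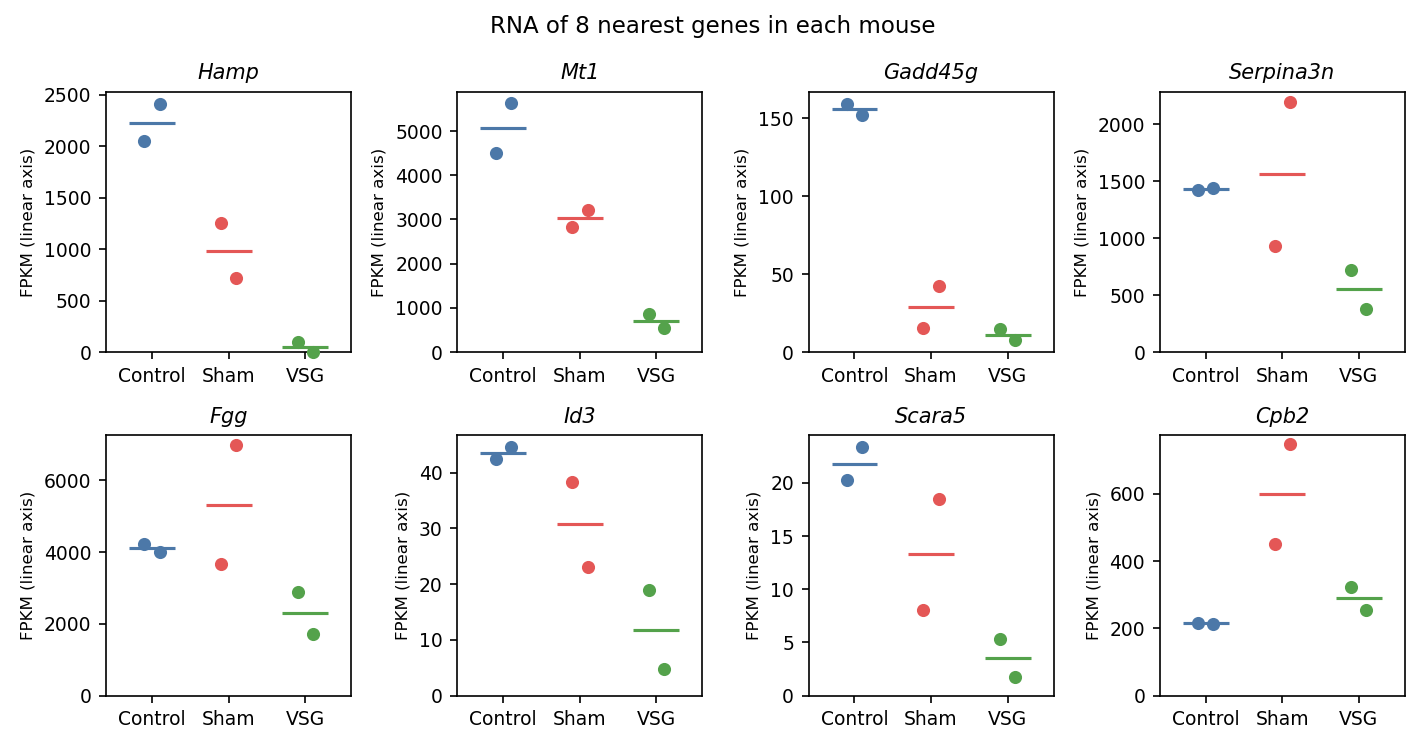
FPKM (linear axes) in each mouse for 8 genes nearest to Control and Sham regions, chosen after their values were seen. Points are mice and lines are group means (n = 2). The VSG mice lie below all others for Hamp, Mt1, Gadd45g, Serpina3n, Fgg, Id3 and Scara5, whereas for Cpb2 they lie between Control and Sham.

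For the genes of the highest regions, Id3 had an FPKM of 42.5 and 44.6 in Control, 38.4 and 23.1 in Sham, and 18.9 and 4.82 in VSG mice, a change of -1.78 ± 0.55 (adjusted p = 0.782). Scara5 had 20.3 and 23.4, 8.05 and 18.5, and 5.37 and 1.76 (-2.05 ± 0.48, adjusted p = 0.632). H6pd had 121 and 129, 118 and 183, and 87.2 and 93.0 (-0.58 ± 0.24, adjusted p = 0.846). In each the VSG mice were the lowest. Cpb2 had 216 and 214, 451 and 747, and 323 and 256, a pattern in which Sham stood above both other groups, with -0.30 ± 0.28 against the mean (adjusted p = 0.874). Ndfip2, whose region had the highest Sham percentile, had 13.5 and 13, 9.32 and 11.8, and 13.3 and 13.5, and was not lower in VSG mice (0.17 ± 0.18). Ell (-0.36), Dhx40 (-0.17), Mapkapk2 (-0.19) and Il1r1 (-1.42) had adjusted p-values from 0.865 to 0.951.

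In lipid and bile acid genes the sign was mixed. Of the 9 tested oxidation and ketogenesis genes with a region, 1 had a negative change, where 5 of the 24 tested genes of the whole list did. All 5 tested bile acid genes with a region had a change above 0 against the mean, with a median of 0.75, where 3 of the 18 tested genes of the whole list had a negative one and the median was 0.67. Cyp7a1, the first enzyme of bile acid synthesis, had 2.28 and 2.6 in Control, 0 and 4.58 in Sham, and 68.3 and 13.2 in VSG mice (3.46 ± 0.94, adjusted p = 0.735). Hsd3b7 was 0.75 higher against the mean (adjusted p = 0.826), with a change of 0.17 against Sham and 1.32 against Control. Apolipoprotein and lipoprotein genes with a region were lower in 4 of 7 cases, where 9 of the 23 tested genes of the whole list were lower. The 4 included Angptl4 (-0.78, adjusted p = 0.782), an inhibitor of lipoprotein lipase, and Apoa5 (-0.65, adjusted p = 0.807). In both genes the 2 VSG mice lay below the 4 others.

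Of the other lists, 3 of 6 tested liver transcription factors with a region had a negative change, as did 5 of 11 in the whole list. Cebpb, which drives acute phase genes and had a region at its promoter, had 127 and 121, 126 and 65.6, and 68.3 and 46.4 (-0.90 ± 0.34, adjusted p = 0.823). The Cebpb region had a VSG peak only 65 bp away, and its percentiles were low, 21.4 in Control and 3.96 in Sham. Hnf4a and Rxra were listed at 0 in Sham mouse 1 only, which can be a failed estimate, and Slc38a4, Gpam and Prox1 in all 6 mice. Cxcl1, a chemokine, had 120 and 27.3, 74.9 and 63.9, and 20.7 and 16.5 (-1.72 ± 0.61, adjusted p = 0.806), with both VSG mice lowest. The liver pyruvate kinase gene Pklr was 1.09 higher (adjusted p = 0.781) in VSG mice. The 7 complement and coagulation genes with a region had positive changes, with a median of 0.12 and 0 at an unadjusted p under 0.05. The whole list was alike, with a negative change in 7 of 29 tested genes and a median of 0.11. None of the genes with a region in these lists passed the adjusted threshold in any of the 3 comparisons.

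Markers of other cell types moved between mice. The Kupffer cell sum over 10 markers was 52.5 and 34.7 in Control, 132 and 121 in Sham, and 101.2 and 326 in VSG mice, highest in VSG mouse 2, in which Hamp, Id3, Scara5, Fgg and Serpina3n were lowest. The stellate cell sum was 49.7 and 51.3 in Control, 20.1 and 33.7 in Sham, and 59.3 and 76.3 in VSG mice, and 4 of 7 tested markers were higher against Sham at an unadjusted p under 0.05. Most of that sum was Dcn, with 40.6 and 41.7, 13.9 and 23.8, and 41.1 and 53.3 in the same order. The sinusoidal endothelial sum was 55.01 and 26.4, 12.3 and 9.10, and 38.0 and 34.1. Of its 9 tested markers, 3 were higher than in Sham at an unadjusted p under 0.05, and 2 were lower by sign. Clec4g (18.5 and 17.4) and Fcgr2b (8.73 and 8.58) were its largest parts in VSG mice. Lyve1, the marker with a region, had 1.39 and 0.614 in Sham and 0.913 and 0.893 in VSG mice. For both sums, Sham and VSG mice did not overlap, and Sham was the lowest group. The cholangiocyte sum ran from 31.0 to 186 and was nearly all Spp1, at 183 in Sham mouse 1, while Krt19 was at most 1.01. The neutrophil sum ran from 115 to 5325 and was nearly all Lcn2, which hepatocytes also make in the acute phase, while Ly6g was listed at 0 in every mouse and Mpo was at most 0.156. The lymphocyte sum stayed between 0.967 and 3.34. The part of these markers in the differences between groups was not tested.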

How the data were processed

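FAIRE-seq and RNA-seq of 12 samples, from 2 mice in each of 3 groups, were analysed from the deposited tables. The authors aligned paired 100-bp FAIRE reads uniquely to mm9 with bowtie1, removed PCR duplicates, called peaks with F-seq at a feature length of 250 bp and retained peaks reproducible between both mice by IDR. The signal of each deposited peak is the F-seq value the authors gave it, used here as a rank within its list. The deposited FPKM values came from Cufflinks, run by the authors per RefSeq transcript and mouse, from 50-bp reads aligned with TopHat2. The labels describe poly(A) selection and the study's methods ribosomal depletion. The authors' comparison tables hold DESeq2 fold changes and p-values from HTSeq counts, and their values were not used here. Read depth was not given in the sources used here.

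Peaks were merged into a union and assigned to the nearest TSS of a protein-coding gene in GENCODE M1 (NCBIM37), promoters reaching 1000 bp from a TSS. The transcript table held 34933 transcripts, of which 29678 matched such a gene. Genes that reached an FPKM of 1 in 2 or more mice were fitted with limma 3.58.1 in R 4.3.3 on log2(FPKM + 1), with trend, over all 6 mice. With 2 mice against 2, an exact permutation test of 1 gene cannot give a p below 0.333. The other steps used Python 3.11.15 with pysam 0.24.0, scipy 1.17.1, numpy 2.4.6, pandas 2.3.3 and matplotlib 3.10.9, and samtools 1.23.1. The steps were tested on simulated data.

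The regions, the gene lists and the motifs were chosen with earlier results of these data known. Named were the 8 regions with the highest Sham percentile among those in the authors' list of sites more open under Sham than under VSG, the 8 highest in both lists, those nearest the rule's edge, the 3 highest near genes of each list, their genes, and the 10 nearest genes with the smallest p. Sequences were taken from the first 2 groups and from regions with the motif of the highest ratio. Some genes of the lists are not reported here. Other genes of the lists with a region within 10 kb, those with most regions, and Hamp2, were named after their values were seen. Alternatives covered peak number, signal, length, overlap and distance, windows, pseudocounts, filters, single transcripts, scaling, the replicate block and each mouse left out.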

Additional observations from a re-analysis of the deposited data

How the results depend on the processing

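The promoter share and the CpG-rich share of Control and Sham regions were under those of the union in each alternative in which both were computed, although the values moved and other peak choices gave other regions. With equal numbers of peaks taken from the lists, 1770 of 2227 regions overlapped one of the 2998, 8.13% lay within 1000 bp of a TSS (union 27.0%) and 2.69% were CpG-rich (21.5%). With the upper 50% of peaks by signal, there were 1267 regions, of which 37 overlapped one of the 2998, so this is almost wholly a different set, in which 4.66% were CpG-rich (29.2%) and the median TSS distance was 12707 bp (5952 bp). With peaks of at least 250 bp, 1000 of 2509 regions overlapped one of the 2998, and the values were 14.0% (29.8%), 8.41% (24.1%) and 11128 bp (7239 bp). Without a VSG peak within 1000 bp, they were 5.25%, 2.65% and 16992 bp. A promoter of 2500 bp gave 18.6% (31.9%), a window of 500 bp 2.80% CpG-rich, and the stricter CpG definition 1.07%. The ratio of the NF1 motif rested on 1 region and was 1.4 with the upper 50% of peaks, that of HNF1 was 0.707 with peaks of at least 250 bp, and that of CTCF core ranged from 1.86 to 4.17.

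The share of genes lower in VSG mice moved with scaling to equal medians to 52.8% against the mean of Control and Sham, 54.7% against Sham and 54.1% against Control. It was 43.1% against the mean and 50.2% against Sham for regions within 1000 bp of a TSS, 45.5% against Sham within 10 kb, and 41.3% against Control with no filter. With 1 mouse left out, it ranged from 36.3 to 45.3%, 40.9 to 48.3% and 38.5 to 47.1%. Calls, with genes named after their values were seen, numbered 1 against Sham with no filter (Sned1, 6 over all genes), 2 with single transcripts (Rbm39 and Slc19a2, 9 over all), and against Control 1 with a pseudocount of 0.1 or 0.5 or scaled medians (Bid, listed at 0 in Control mice, 25, 31 and 30 over all), 2 with no filter (Ccdc39 and Tnrc6c, 41 over all) and 3 with single transcripts (Fkbp8, H2afy and Pdcd4, 25 over all). With 1 mouse left out, calls ranged from 0 to 3 against the mean (3 without Sham mouse 2), 0 to 12 against Sham (12 without Sham mouse 2) and 0 to 1 against Control, where over all genes they ranged from 0 to 14, 0 to 76 and 0 to 34, and the cause was not tested. The lone mouse of a group was assumed to vary like the others. None of the 25 single genes examined was called or turned in sign against the mean in 11 alternatives, with adjusted p-values from 0.130 to 0.999 for Hamp and 0.148 to 0.898 for Mt1.

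The labels do not say that replicate numbers pair the mice. Deviations of same-numbered mice correlated weakly, at 0.118, 0.064 and 0.039 over 9869 genes, which cannot exclude a shared batch. With the replicate block, calls were 0 in each comparison (0, 0 and 10 over all genes) and 39.3%, 42.7% and 44.4% of genes were lower in VSG mice. Peak lists without values per mouse, an unknown depth and 2 mice per group limit what these data can show.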
